A study of Homo sapiens with 6 samples.

Results

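The genes encoded by the mitochondrial genome were taken as every row of the deposited gene table whose chromosome was given as MT. There were 37 such rows among 58735 listed genes: 13 mRNAs, 2 rRNAs and 22 tRNAs. The plus strand of the reference carried 28 of them, and the minus strand carried the other 9, which were MT-ND6 and 8 tRNAs. RNA had been sequenced from HCT116, a human colorectal carcinoma cell line recorded as WT in genotype. In the CTR group the cells were control transfected (3 libraries), and in the miR-8485 group they received 50 nM of a synthetic mimic of the microRNA miR-8485 (3 libraries). RNA of both groups was taken 48 h after transfection, from independent biological replicates of 1 cell line. The comparison asked how the transcriptome of these cells differed once the mimic was present.

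The mitochondrial genome is a small double-stranded circle present in many copies per cell. It encodes core subunits of the respiratory chain and of ATP synthase, together with the rRNAs and tRNAs of the organelle's own ribosomes. Both strands are transcribed by POLRMT, with TFAM and TFB2M, into long precursors. The plus rows belong to the transcript that starts at the heavy-strand promoters, and the minus rows to the transcript from the light-strand promoter. tRNAs lie between most of the longer genes, and their excision by RNase P and ELAC2 frees the mRNAs and rRNAs. Members of 1 strand therefore share a primary transcript and are not independent of each other.

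The 3 tRNAs with the most fragments, a neighbouring pair of plus-strand tRNAs that were lower in miR-8485, and the places where adjoining members touch or overlap, are shown here because the per-gene values below depend on them. All were read from chrM of hg38, whose length was 16569 bases, and the deposited positions of 37 of 37 members equalled those of GENCODE release 44. Each is written 5′ to 3′ on the strand of the gene. In the tRNAs the capitals mark the anticodon, the 3 bases that read the codon.
MT-TP, tRNA for proline, chrM:15956-16023, minus strand: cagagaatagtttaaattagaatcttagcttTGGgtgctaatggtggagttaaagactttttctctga
MT-TN, tRNA for asparagine, chrM:5657-5729, minus strand: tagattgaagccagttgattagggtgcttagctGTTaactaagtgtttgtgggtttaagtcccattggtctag
MT-TC, tRNA for cysteine, chrM:5761-5826, minus strand: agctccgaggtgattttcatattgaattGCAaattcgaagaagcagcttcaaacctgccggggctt
MT-TS2, tRNA for serine, chrM:12207-12265, plus strand: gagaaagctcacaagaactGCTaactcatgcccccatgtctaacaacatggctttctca
MT-TH, tRNA for histidine, chrM:12138-12206, plus strand: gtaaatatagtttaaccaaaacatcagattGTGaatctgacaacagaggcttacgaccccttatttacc

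MT-TC and MT-TN are separated by the stretch at which replication of the light strand is known to start. In the first line below the capitals mark this gap of 31 bases. In the other lines they mark bases shared by overlapping mRNAs, 46 bases for MT-ATP8 with MT-ATP6 and 7 bases for MT-ND4L with MT-ND4.
Gap between MT-TC and MT-TN, chrM:5720-5770, minus strand: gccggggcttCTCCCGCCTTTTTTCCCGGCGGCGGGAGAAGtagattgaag
Overlap of MT-ATP8 and MT-ATP6, chrM:8512-8587, plus strand: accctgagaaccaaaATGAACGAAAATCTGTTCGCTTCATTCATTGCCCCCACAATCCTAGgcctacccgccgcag
Overlap of MT-ND4L and MT-ND4, chrM:10745-10781, plus strand: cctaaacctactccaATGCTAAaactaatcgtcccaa

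The word TGTGTGT, which would pair with bases 2 to 8 of the mimic, was searched on both strands of chrM with overlapping copies counted. It had 0 copies in the sense sequence of the 37 members and 0 on the whole plus strand, and 3 copies on the minus strand. Of 44732 annotated protein-coding transcripts of 207 to 1812 bases, the length range of the mitochondrial mRNAs, 8.46% held it. This describes the letters only and does not bear on binding.

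Levels are given as FPKM, fragments scaled to gene length and to the fragments of the library, as the authors deposited them. The libraries held 17473874 to 18480047 fragments on listed genes, and 59.6% of the 12349 genes tested differed between the groups. Epithelial markers were present (EPCAM at a mean of 133 FPKM, KRT8 at 700 FPKM, CDH1 at 19.4 FPKM), while the intestinal genes VIL1 and CDX1 had at most 8 and 1 fragments in any library. Markers of other cell types reached at most 12 fragments (CD3E 0, PTPRC 1, COL1A2 1, PECAM1 12), except COL1A1 at 4.05 to 6.40 FPKM. CTR replicate 1 stood apart in the mitochondrial genes, mainly in the mRNAs. It was the lowest of all 6 libraries for 12 of 13 mRNAs and 2 of 2 rRNAs, against 17.8% of all tested genes. Of the tRNAs with a mean of at least 10 fragments it was the lowest for 5 of 15. Its mRNAs lay a median of 0.49 log2 units below the other CTR libraries, whereas over all tested genes the median offset was 0.0011. Values without this library are therefore given beside those of the members that were called. It was picked out from the values of these same genes, so tests without it are not separate support.

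Mitochondrial genes took up a larger part of each miR-8485 library than of any CTR library. Their share of the fragments on listed genes was 7.94%, 10.2% and 9.50% in CTR, compared with 11.3%, 11.1% and 10.6% in miR-8485. The groups did not overlap, but the gap between the highest CTR and the lowest miR-8485 library was small beside the spread within CTR. The means were 9.23% ± 1.17 in CTR and 11.0% ± 0.389 in miR-8485 (SD, n = 3). The difference was 1.77 percentage points, and 1.12 points without CTR replicate 1. Measured instead as a share of summed FPKM, the groups overlapped (29.5% ± 3.20 against 32.9% ± 0.750, SD, n = 3). Such shares are relative to the other RNA of the library, so a change in the number of mitochondrial genomes, in RNA per genome or in cytoplasmic RNA cannot be told apart.

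The rRNA and tRNA shares showed wider separation than the mRNA share. The 13 mRNAs took 6.85%, 9.02% and 8.34% of fragments in CTR and 9.88%, 9.58% and 9.12% in miR-8485. The rRNAs took 1.06%, 1.18% and 1.13% against 1.40%, 1.43% and 1.39%, a difference of 0.285 points (0.253 without CTR replicate 1). The tRNAs took 0.0332%, 0.0390% and 0.0371% against 0.0560%, 0.0558% and 0.0524%. Neither class overlapped between the groups, and the rRNA means were 1.12% ± 0.0616 and 1.41% ± 0.0222 (SD, n = 3). Members on the minus strand made up 2.42%, 2.33% and 2.36% of mitochondrial fragments in CTR and 2.83%, 2.71% and 2.69% in miR-8485. This ratio within the mitochondrial fragments did not overlap between the groups either, and MT-ND6 supplied 82.8 to 85.9% of the minus-strand fragments. Whether the counting used strand is not given in the sources used here. Minus-strand rows, MT-ND6 among them, can therefore hold reads of the opposite strand.

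All 37 members passed the filter of a mean of at least 1 FPKM, so none was dropped for low values. At a Benjamini-Hochberg adjusted p under 0.05 in limma, 12 members rose and 4 fell. Of all tested genes, 29.1% rose and 30.5% fell, so the members' count of rises was close to the share of all genes and their count of falls was below it. The median log2 fold change was 0.29 over the members, 0.17 without CTR replicate 1, and -0.0041 over all tested genes. Without CTR replicate 1, 13 members rose and 6 fell, against 28.8% and 29.7% of all tested genes. The libraries did not overlap for 18 members, 15 higher and 3 lower, against 66.5% of all tested genes in either direction (32.5% higher and 34% lower). By strand, 7 of 9 minus-strand members rose and 0 fell, with a median of 0.46. Of the 28 plus-strand members 5 rose and 4 fell, with a median of 0.23. Without CTR replicate 1 these medians were 0.41 and 0.12. The difference between strands was not tested over members, which share their precursors. Strand here is that of the gene, since the strand setting of the counting is not given.

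**Figure D1:**
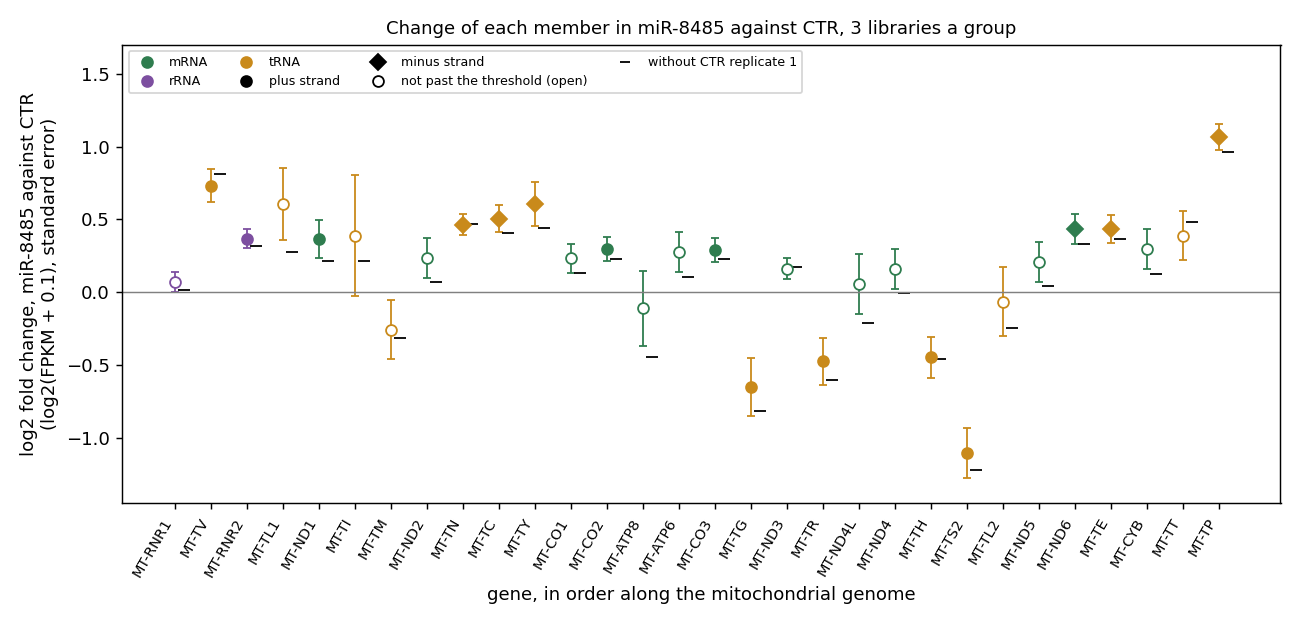
Log2 fold change of miR-8485 against CTR (y axis, log2(FPKM + 0.1), bars are standard errors from limma) for 30 members, in order along the genome (x axis), with colour for RNA class, diamonds for the minus strand and open symbols where the test was not passed. Black dashes give the value without CTR replicate 1. The diamonds lie between 0.43 and 1.07, while the plus-strand tRNAs shown lie between -1.10 and 0.73. The 7 tRNAs with a mean under 10 fragments are not shown, and those of the minus strand lay between -0.39 and 1.31.

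Among the mRNAs, 4 of 13 rose and 0 fell, and 12 of 13 fold changes were above 0. The count of rises was close to the background of 29.1%. The median of 0.23 became 0.13 without CTR replicate 1, when 4 rose and 2 fell. After rescaling to TPM, in which every library has the same sum over genes, the mRNA median was 0.12, where the median of all tested genes was -0.12. The mRNAs that rose belonged to complex I (MT-ND1 and MT-ND6) and complex IV (MT-CO2 and MT-CO3).

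Complex I, the NADH dehydrogenase that feeds electrons into the respiratory chain, has 7 subunits of mitochondrial origin. MT-ND6 (ENSG00000198695), the only mRNA of the minus strand, was at 3006, 3845 and 3629 FPKM in CTR and at 5087, 4622 and 4380 FPKM in miR-8485. All 3 miR-8485 libraries lay above all 3 CTR libraries. Its mean rose from 3493 ± 436 to 4697 ± 359 FPKM (SD, n = 3). On the log2 scale this was 0.43 ± 0.10 (SE, limma adjusted p = 0.00787), and 0.33 without CTR replicate 1 (limma adjusted p = 0.00567). As the strand setting of the counting is not given, reads of the plus-strand precursor across MT-ND6 cannot be told apart from its own. MT-ND1 was at 2824, 4028 and 3719 FPKM in CTR and at 4774, 4485 and 4216 FPKM in miR-8485. These groups did not overlap, with CTR replicate 1 well below the rest. The log2 fold change was 0.36 ± 0.13 (SE, limma adjusted p = 0.0406), and 0.21 without that library (limma adjusted p = 0.0229). The call was lost without CTR replicate 3 and without each miR-8485 replicate in turn, at limma adjusted p from 0.0577 to 0.123. It was also lost after rescaling to TPM (0.0844), with no variance trend (0.0667) and with no filter (0.301), so it failed in 7 of 16 alternatives.

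The other subunits of complex I did not pass the test. MT-ND2 was at 3158, 4649 and 4260 FPKM in CTR and at 4886, 4758 and 4357 FPKM in miR-8485, a log2 difference of 0.23 (limma adjusted p = 0.18). MT-ND5 was at 2072, 3041 and 2826 FPKM against 3146, 3036 and 2872 FPKM, with a log2 difference of 0.21 (limma adjusted p = 0.219). In both genes the CTR libraries other than replicate 1 lay within or next to the miR-8485 range. MT-ND3 was at 3845, 3700 and 3813 FPKM in CTR and at 4550, 4382 and 3805 FPKM in miR-8485 (log2 difference 0.16, limma adjusted p = 0.0951). MT-ND3 was the mRNA in which CTR replicate 1 was not the lowest library.

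MT-ND4 and MT-ND4L, which share a bicistronic mRNA, had CTR values on either side of the miR-8485 values. MT-ND4 was at 7974, 11779 and 10838 FPKM in CTR and at 11611, 11387 and 10763 FPKM in miR-8485, a log2 difference of 0.16 (limma adjusted p = 0.342). MT-ND4L was at 3238, 5880 and 5507 FPKM in CTR and at 4768, 5119 and 4825 FPKM in miR-8485, a log2 difference of 0.06 (limma adjusted p = 0.831). Without CTR replicate 1 both miR-8485 means were the lower, by log2 differences of -0.0065 and -0.22. For MT-ND4L the limma adjusted p was then 0.00715, with that library picked out from these same genes. The sign of MT-ND4L thus depended on that library, and it was also -0.06 after rescaling to TPM.

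Complex IV, cytochrome c oxidase, takes its catalytic core from MT-CO1, MT-CO2 and MT-CO3, which were among the most abundant members. MT-CO2 was at 12717, 15211 and 14186 FPKM in CTR and at 18008, 17228 and 16286 FPKM in miR-8485. MT-CO3 was at 12856, 14990 and 14264 FPKM in CTR and at 18052, 17452 and 15945 FPKM in miR-8485. For both, every miR-8485 library was above every CTR library. MT-CO2 rose from a mean of 14038 ± 1254 to 17174 ± 862 FPKM (SD, n = 3) and MT-CO3 from 14037 ± 1085 to 17149 ± 1086 FPKM. The log2 fold change was 0.29 ± 0.08 for each (SE, limma adjusted p = 0.0169), and 0.22 and 0.23 without CTR replicate 1. The calls were lost without miR-8485 replicate 1 (limma adjusted p = 0.076 and 0.0775) and without miR-8485 replicate 2 (0.0663 and 0.0737). They were also lost after rescaling to TPM (limma adjusted p = 0.0614 and 0.0623) and with no filter on low values (0.645 and 0.65). MT-CO1 was at 8851, 11379 and 10274 FPKM in CTR and at 12508, 11730 and 11402 FPKM in miR-8485. Its groups did not overlap, although CTR replicate 2 came close to miR-8485 replicate 3, and its log2 difference of 0.23 did not pass (limma adjusted p = 0.0735).

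MT-CYB encodes the cytochrome b of complex III. It was at 3450, 5090 and 4735 FPKM in CTR and at 5608, 5351 and 5123 FPKM in miR-8485, without overlap (log2 difference 0.30, limma adjusted p = 0.0996). MT-ATP6 and MT-ATP8 encode parts of the proton channel and stalk of ATP synthase and share 46 bases. MT-ATP6 was at 7883, 11622 and 10702 FPKM in CTR and at 12565, 12096 and 11393 FPKM in miR-8485 (log2 difference 0.27, limma adjusted p = 0.125). MT-ATP8 was at 126, 246 and 264 FPKM against 196, 169 and 198 FPKM, with a log2 difference of -0.11 (limma adjusted p = 0.734). Its miR-8485 libraries lay between CTR replicate 1 and the other CTR libraries. Without CTR replicate 1, a library picked out from these same genes, it was lower in miR-8485 by a log2 difference of -0.45 (limma adjusted p = 0.00313). Without CTR replicate 2 or 3 the log2 difference was instead 0.03 or 0.08. Of the 207 bases of MT-ATP8, 46 also belong to MT-ATP6, and its count rested on a mean of 754 fragments against 137053 for MT-ATP6. How fragments spanning both genes were assigned is not given in the sources used here, so its level is uncertain.

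**Figure D2:**
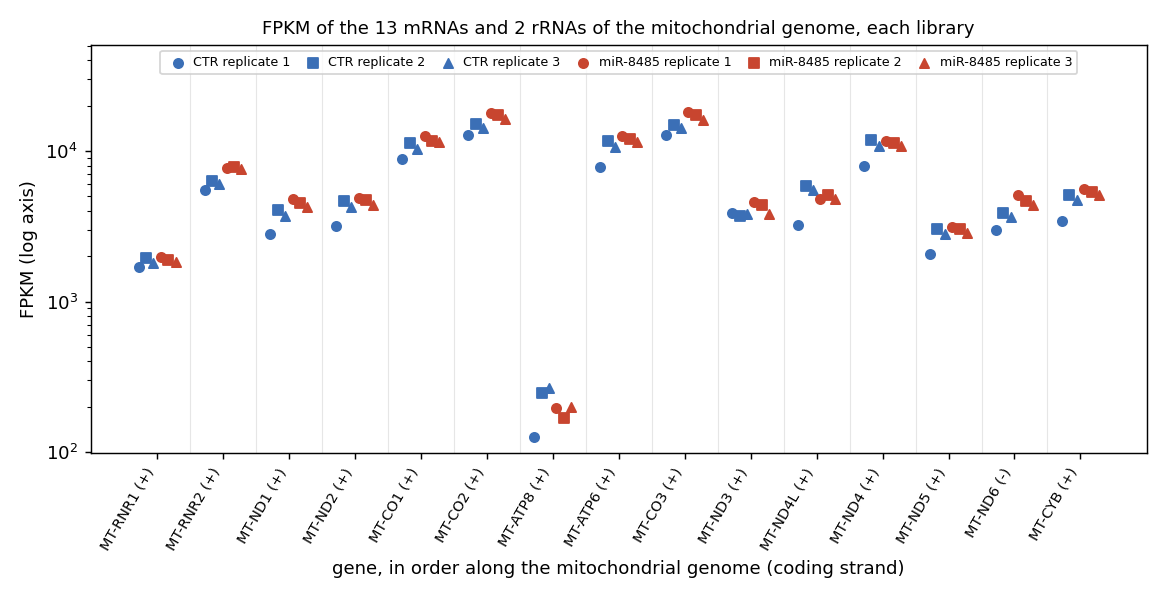
FPKM (y axis, log scale) of the 13 mRNAs and 2 rRNAs in each of the 6 libraries, in order along the genome (x axis, coding strand in brackets), with CTR in blue, miR-8485 in red and the symbol giving the replicate. CTR replicate 1 (blue circles) is the lowest point of most genes, and the red points of MT-RNR2, MT-CO2, MT-CO3 and MT-ND6 lie above all blue points. The same holds, with narrower gaps, for MT-ND1, MT-CO1 and MT-CYB.

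The make-up of the mRNA pool was similar in the groups apart from a few members. As a part of the summed FPKM of the 13 mRNAs, MT-CO2 was 16.5% in CTR and 17.0% in miR-8485, and MT-CO3 was likewise 16.5% and 17.0%. MT-ND6 was 4.09% ± 0.0747 in CTR and 4.64% ± 0.145 in miR-8485 (SD, n = 3), and the groups did not overlap. MT-ND4L was 5.61% and 4.86%, with CTR replicate 1 at 4.50%, just below the miR-8485 libraries, and the other CTR libraries above them. MT-ATP8, the smallest part, was 0.243% and 0.186%. MT-ND1 was 4.11% and 4.44%, also without overlap, so MT-ND6 and MT-ND1 had a larger part of the pool in every miR-8485 library.

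MT-RNR1 and MT-RNR2 encode the 12S and 16S rRNAs of the small and large mitochondrial ribosomal subunits. MT-RNR2 was at 5543, 6274 and 6051 FPKM in CTR and at 7653, 7839 and 7540 FPKM in miR-8485. The groups lay well apart, and the mean (SD, n = 3) rose from 5956 ± 375 to 7677 ± 151 FPKM. The log2 fold change was 0.37 ± 0.06 (SE, limma adjusted p = 0.00168), and 0.32 without CTR replicate 1 (limma adjusted p = 3.8e-04). MT-RNR1 was at 1687, 1956 and 1807 FPKM in CTR and at 1990, 1893 and 1830 FPKM in miR-8485, so the groups overlapped. Its log2 difference of 0.07 ± 0.07 did not pass (SE, limma adjusted p = 0.391), and it was -0.05 after rescaling to TPM. The rRNAs are adjacent on the same strand, with only MT-TV between them. The library kit's treatment of rRNA is not given in the sources used here, so these levels cannot be read as the cellular amounts of rRNA.

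Ratios within a library do not depend on the library total, and a pair of them was fixed for testing. The log2 ratio of MT-ND6 to its opposite-strand neighbour MT-ND5 was 0.54, 0.34 and 0.36 in CTR and 0.69, 0.61 and 0.61 in miR-8485. The groups did not overlap, and the difference of 0.22 had p = 0.1 in a two-sided exact permutation test, the smallest p that 3 against 3 libraries allow (0.2 adjusted over the 2 ratios). Without CTR replicate 1 the difference was 0.29. Because the strand setting of the counting is not given, this ratio may not measure minus-strand RNA alone. The log2 ratio of MT-RNR2 to MT-ND1, neighbours on the same strand, was 0.97, 0.64 and 0.70 in CTR and 0.68, 0.81 and 0.84 in miR-8485. These overlapped, with a difference of 0.0037 (exact permutation p = 1).

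Other ratios were chosen after their values were seen and are given without a test. The log2 ratio of MT-RNR1 to MT-RNR2 was -1.72, -1.68 and -1.74 in CTR and -1.94, -2.05 and -2.04 in miR-8485. CTR replicate 1 lay with its group here, and the difference was -0.30 with or without it. The log2 ratio of MT-TP to MT-CYB, opposite-strand genes near the end of the map, was -1.67, -1.92 and -1.82 in CTR and -1.11, -1.01 and -0.98 in miR-8485. That of MT-TC to MT-CO1 was -2.84, -2.89 and -2.79 in CTR and -2.58, -2.50 and -2.62 in miR-8485. In both pairs the tRNA of the minus strand was higher relative to the plus-strand mRNA in every miR-8485 library than in any CTR library. The log2 ratio of MT-ND6 to MT-CYB, also opposite-strand genes, differed by 0.14 (0.20 without CTR replicate 1), and its groups overlapped. The log2 ratio of MT-ATP8 to MT-ATP6 differed by -0.38 and that of MT-ND4L to MT-ND4 by -0.11, and both overlapped between the groups.

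**Figure D3:**
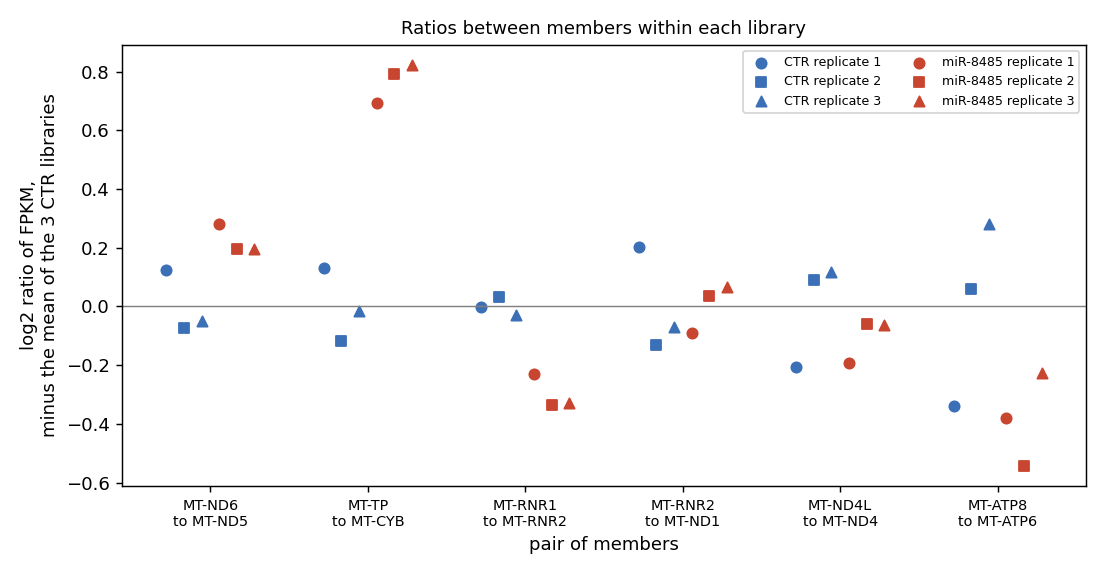
Log2 ratio of FPKM within each library (y axis, minus the mean of the 3 CTR libraries) for 6 pairs of members (x axis), with CTR in blue, miR-8485 in red and the symbol giving the replicate. The groups separate for MT-ND6 to MT-ND5, MT-TP to MT-CYB and MT-RNR1 to MT-RNR2 and overlap for the other pairs.

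The tRNA rows counted fragments that fell on tRNA genes, which can come from uncut precursors as well as from mature tRNAs. Of 22 tRNAs, 7 rose and 4 fell. Of all tested genes, 29.1% rose and 30.5% fell. Among the 15 with a mean of at least 10 fragments, 5 of 5 on the minus strand rose. Of the 10 on the plus strand 1 rose, 4 fell and 5 did not pass. With the low-count rows included, 7 of 14 plus-strand and 7 of 8 minus-strand fold changes were above 0, with medians of 0.16 and 0.48 (-0.015 and 0.42 without CTR replicate 1). The 3 most counted, MT-TN, MT-TC and MT-TP, held 78.7 to 85.7% of the 5806 to 9958 tRNA fragments per library. MT-TN and MT-TC border the gap of 31 bases printed above, and MT-TP borders the control region, where no gene is listed. Whether the counting used strand is not given in the sources used here, so reads from a tRNA and from the opposite-strand precursor that spans it cannot be told apart.

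MT-TP, which carries proline, showed the largest rise among the tRNAs with at least 10 fragments. It was at 1084, 1345 and 1344 FPKM in CTR and at 2600, 2655 and 2599 FPKM in miR-8485. The groups lay far apart, and the mean was 1258 ± 150 against 2618 ± 32.4 FPKM (SD, n = 3), a ratio of 2.08. Its log2 fold change was 1.07 ± 0.09 (SE, limma adjusted p = 4.6e-05), and 0.96 without CTR replicate 1 (limma adjusted p = 1.0e-05). It passed the test under 16 of 16 alternatives.

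MT-TN, MT-TC and MT-TY lie in 1 cluster of minus-strand tRNAs with MT-TA and carry asparagine, cysteine and tyrosine. MT-TN was at 1459, 1548 and 1361 FPKM in CTR and at 2098, 2077 and 1845 FPKM in miR-8485 (log2 fold change 0.46 ± 0.07 SE, limma adjusted p = 0.00106). MT-TC was at 1236, 1530 and 1485 FPKM in CTR and at 2096, 2067 and 1850 FPKM in miR-8485 (log2 fold change 0.50 ± 0.09 SE, limma adjusted p = 0.00233). MT-TY was at 207, 283 and 303 FPKM in CTR and at 424, 431 and 341 FPKM in miR-8485 (log2 fold change 0.61 ± 0.15 SE, limma adjusted p = 0.0107). In all 3 the groups did not overlap and the rise passed under 16 of 16 alternatives. The log2 fold changes were 0.46, 0.41 and 0.44 without CTR replicate 1. MT-TE, the tRNA for glutamate beside MT-ND6, was at 69.1, 84.9 and 75.3 FPKM in CTR and at 102, 114 and 93.6 FPKM in miR-8485 (log2 fold change 0.43 ± 0.09 SE, limma adjusted p = 0.00526), and its log2 fold change was 0.36 without CTR replicate 1. MT-TA, for alanine, also rose, by a log2 fold change of 1.31 (limma adjusted p = 8.4e-04; 1.22 without CTR replicate 1), but on a mean of 4.17 fragments per library.

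On the plus strand the tRNAs that fell lay between MT-CO3 and MT-TL2. MT-TS2, for serine, was at 30.1, 31.9 and 46.8 FPKM in CTR and at 14.2, 17.8 and 17.8 FPKM in miR-8485. The miR-8485 values were all below the lowest CTR value, with a log2 fold change of -1.10 ± 0.17 (SE, limma adjusted p = 0.0011) that passed under 16 of 16 alternatives. It was -1.22 without CTR replicate 1 and rested on a mean of 28.3 fragments per library. MT-TG, for glycine, was at 71.0, 90.2 and 112 FPKM in CTR and at 63.0, 66.7 and 44.01 FPKM in miR-8485, for a log2 fold change of -0.65 ± 0.20 (SE, limma adjusted p = 0.0242). MT-TH, for histidine, was at 219, 227 and 222 FPKM in CTR and at 199, 129 and 169 FPKM in miR-8485, for a log2 fold change of -0.45 ± 0.14 (SE, limma adjusted p = 0.0255). These groups did not overlap. MT-TR, for arginine, was at 83.6, 107 and 111 FPKM in CTR and at 90.8, 61.2 and 66.2 FPKM in miR-8485, for a log2 fold change of -0.48 ± 0.16 (SE, limma adjusted p = 0.0364), with overlap.

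Of these falls, that of MT-TS2 was the firm call. MT-TH lost its call without each CTR replicate in turn (limma adjusted p from 0.0514 to 0.063). MT-TG lost it without CTR replicate 2, CTR replicate 3 or miR-8485 replicate 3 (0.0567 to 0.0727). The log2 fold changes of MT-TG, MT-TH and MT-TR were -0.82, -0.46 and -0.60 without CTR replicate 1. MT-TR lost its call without CTR replicates 2 or 3 or miR-8485 replicates 2 or 3 (0.0975 to 0.112) and passed in 8 of 16 alternatives. All 4 genes abut mRNAs or tRNAs on both sides with 0 bases between them. MT-TV, which rose, and MT-TL2, which did not pass, also had 0 bases to the genes on both sides.

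MT-TV and MT-TL1, for valine and leucine, flank MT-RNR2 on the plus strand. MT-TV was at 16.9, 16.0 and 12.8 FPKM in CTR and at 28.2, 23.2 and 24.3 FPKM in miR-8485. It rose without overlap, by a log2 fold change of 0.73 ± 0.12 (SE, limma adjusted p = 0.00118), on a mean of 25.5 fragments. The log2 fold change was 0.81 without CTR replicate 1. The call was lost with voom on the recovered fragments (limma adjusted p = 0.0674), the only alternative of 16 in which it was. MT-TL1 was at 77.6, 156 and 150 FPKM in CTR and at 177, 176 and 205 FPKM in miR-8485. Its groups did not overlap, yet the log2 difference of 0.60 ± 0.25 did not pass (SE, limma adjusted p = 0.0686). Without CTR replicate 1, a library picked out from the mitochondrial genes, the difference was 0.28 (limma adjusted p = 0.0155). MT-TT, MT-TI, MT-TM and MT-TL2 did not pass, with log2 differences of 0.39, 0.39, -0.26 and -0.07 and overlapping groups. The 7 tRNAs under 10 fragments (MT-TF, MT-TQ, MT-TW, MT-TA, MT-TS1, MT-TD and MT-TK) had means of 1.62 to 5.83 FPKM. Of these MT-TA alone was called.

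**Figure D4:**
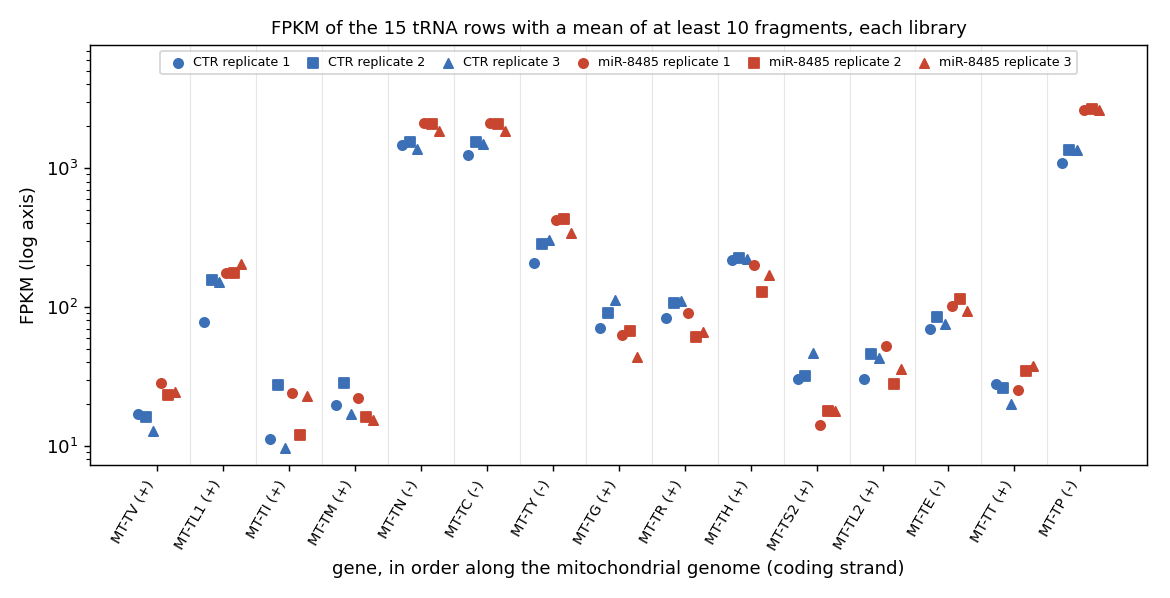
FPKM (y axis, log scale) of the 15 tRNA rows with a mean of at least 10 fragments in each of the 6 libraries, in order along the genome (x axis, coding strand in brackets), with CTR in blue, miR-8485 in red and the symbol giving the replicate. MT-TN, MT-TC and MT-TP stand highest with red above blue, and red lies below blue for MT-TS2, MT-TG and MT-TH.

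Nuclear genes whose products act on mitochondrial DNA, on its RNAs or on the assembly of its encoded subunits were taken from 5 lists. Of 89 tested genes 42 rose and 15 fell, against 29.1% and 30.5% of all tested genes, and their median log2 fold change was 0.13. The counts were also 42 and 15 without CTR replicate 1. After rescaling to TPM the counts were 24 and 21, against 21.2% and 38.3% of all tested genes. The share of rises among all called genes went from 48.8% to 35.6%.

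In the list for transcription and the nucleoid, 3 of 9 rose and 2 fell, against 29.1% and 30.5% of all tested genes. TFAM, which packages mitochondrial DNA and opens its promoters, was at 13.2, 13.7 and 13.2 FPKM in CTR and at 7.55, 7.78 and 8.29 FPKM in miR-8485 (log2 fold change -0.76, limma adjusted p = 2.6e-05). TFB2M, which melts the promoter with POLRMT, was at 14.8, 15.7 and 15.3 FPKM in CTR and at 23.6, 23.4 and 22.9 FPKM in miR-8485 (log2 fold change 0.61, limma adjusted p = 2.9e-05). These promoter factors thus moved in opposite directions without overlap of the groups. POLRMT, the polymerase itself, rose from 31.7 to 34.9 FPKM, by 0.13 on the log2 scale (limma adjusted p = 0.0239), a call lost in 6 of 16 alternatives. TFB1M, which methylates the 12S rRNA, had a log2 fold change of 0.27, and MTERF3, of the MTERF family of mitochondrial DNA- and RNA-binding proteins, of -0.31.

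In RNA cleavage, polyadenylation and decay, 6 of 17 rose and 4 fell, against the same 29.1% and 30.5% of all tested genes. REXO2, which degrades short RNAs in mitochondria, had the largest fall, from 10.9 to 4.26 FPKM (log2 fold change -1.33, limma adjusted p = 5e-06). Members of the FASTK family of RNA-binding proteins moved both ways, with FASTKD2 at -0.74 and GRSF1, a granule protein outside that family, at -0.17, while FASTKD1, FASTKD3 and FASTKD5 rose by 0.45, 0.54 and 0.29 on the log2 scale. LRPPRC, which stabilises mitochondrial mRNAs, was at 34.8 and 34.4 FPKM (log2 difference -0.02, limma adjusted p = 0.749).

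Genes that modify mitochondrial rRNA and tRNA gave 11 rises and 4 falls of 23. For this and the next lists the shares of all tested genes were again 29.1% and 30.5%. QTRT1 and TRNT1, which insert queuosine and add the terminal CCA to tRNAs, and MRM1, which methylates the 16S rRNA, rose by 0.93, 0.82 and 0.75 on the log2 scale. QTRT2, the partner of QTRT1, and the methyltransferase NSUN2 fell by 0.59 and 0.52, and TRIT1, which isopentenylates tRNAs, fell by 0.22. In DNA replication and maintenance 6 of 17 rose, led by the topoisomerase TOP1MT (1.12), the thymidine kinase TK2 (0.80) and the helicase TWNK (0.71). The 3 that fell were the nuclease DNA2 (-0.68) and the pyrimidine nucleotide carriers SLC25A33 (-0.52) and SLC25A36 (-0.49). POLG, the replicative polymerase, had a log2 difference of -0.01 (limma adjusted p = 0.875). Among assembly factors 16 of 23 rose and 2 fell, with the haem A synthase COX15 at 11.6 and 22.9 FPKM (0.98) and COX10, which acts just before it, at -0.41. TMEM186, for complex I, and COA3, for complex IV, rose by 0.83 and 0.75. Nuclear-encoded subunits of oxidative phosphorylation were picked by a pattern of gene symbols, which leaves out some subunits, such as COX4I1. Of 75 tested, 43 rose and 4 fell, against 29.1% and 30.5% of all tested genes. Single rises passed in from 8 of 16 alternatives (UQCRH) to 16 of 16 (COX7C). The median of the 75 was 0.24, and 0.31 without CTR replicate 1. The median of the mitochondrial mRNAs moved the other way without that library, from 0.23 to 0.13.

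**Figure D5:**
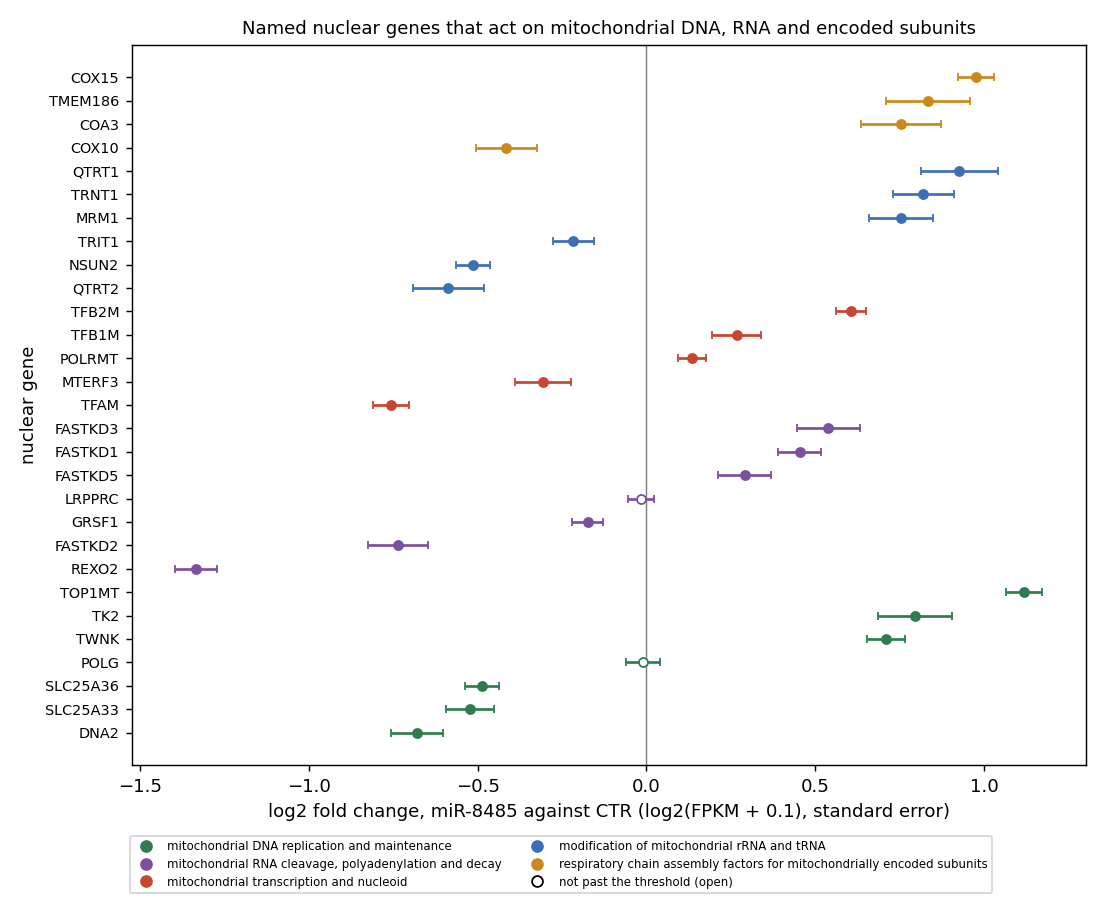
Log2 fold change of miR-8485 against CTR (x axis, log2(FPKM + 0.1), bars are standard errors from limma, 3 libraries a group) for the nuclear genes named in the text (y axis), with colour for the list and open symbols where the test was not passed. TFAM and REXO2 lie to the left of 0 at -0.76 and -1.33, and TFB2M, COX15 and TOP1MT to the right at 0.61, 0.98 and 1.12.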

How the data were processed

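RNA of 6 HCT116 libraries (3 CTR, 3 miR-8485; VAHTS Universal V8 kit, Illumina NovaSeq, paired ends) was trimmed with fastp, mapped to hg38 with HISAT2 2.0.5 and counted with featureCounts 1.5.0-p3, per the methods and the submitters' processing notes. The authors deposited gene FPKM values. All deposited values gave whole fragments (100%, within 0.02), so each library's fragments could be recovered. The FPKM denominator exceeded the fragments on listed genes by 1.04 to 3.09%, and those further fragments were not analysed here. The columns that matched no sample numbered 0. Strand setting and overlap rule of the counting are not given in the sources used here.

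log2(FPKM + 0.1) of genes with a mean of at least 1 FPKM (12349; 26967 of the listed genes were at 0 in every library) was fitted in limma 3.58.1 (R 4.3.3) using a trended prior variance, with two-sided p, Benjamini-Hochberg adjustment over all tested genes and a threshold of 0.05. A fold change on this scale understates that of low genes. A count model was not the main test because the deposited unit is FPKM, and voom on the recovered fragments was an alternative. The fit was also run on simulated libraries with changes of a set size, which does not show how it behaves for these members. Ratios of 2 genes were compared by exact permutation over libraries. Python 3.11.15 with scipy 1.17.1 and pandas 2.3.3 was used for the rest. Alternatives were other pseudocounts (1 and 0.01), no filter, a mean of at least 5 FPKM, median-of-ratios scaling, TPM, a total without mitochondrial fragments, no variance trend, a replicate block, voom, and each library left out. The members and the lists were chosen with earlier results of these data known.

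Named genes were all mitochondrial mRNAs and rRNAs, tRNAs with a mean of at least 10 fragments, and the 3 largest rises and 3 largest falls without overlap in each nuclear list, plus POLRMT, TFAM, LRPPRC and POLG. Of nuclear genes named as copies of mitochondrial genes, counts and the 5 with the highest mean are given.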

Additional observations from a re-analysis of the deposited data

How the results depend on the processing

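Of the named members, MT-TP, MT-TN, MT-TC, MT-TY, MT-TE and MT-TS2 kept their call under 16 of 16 alternatives. Without a filter on low values (31768 genes tested), 7 members were higher and 1 lower, against 12 and 4. Of all tested genes, 10.8% were higher and 11.3% lower without the filter, against 29.1% and 30.5% with it. MT-RNR2 (adjusted p = 0.355) and MT-ND6 (0.182, limma) lost their calls, as did MT-ND1, MT-CO2, MT-CO3, MT-TG, MT-TR and MT-TH. The cause was not tested. Leaving out single libraries gave 9 to 18 members higher (18 without CTR replicate 2) and 1 to 6 lower. The count of lower members was 1 without CTR replicate 2 or 3, 2 without miR-8485 replicate 3 and 6 without CTR replicate 1. In these fits 25.3 to 28.8% of all tested genes were higher and 27.4 to 29.7% lower. The median mRNA log2 fold change was then 0.13 to 0.34, and the difference in the mitochondrial share was 1.12 to 2.27 points. The group difference in log2 ratio was 0.19 to 0.29 for MT-ND6 to MT-ND5. For MT-RNR2 to MT-ND1 it ranged from -0.062 to 0.10, with either sign. TPM left 24 nuclear genes higher instead of 42, and 9 members higher and 4 lower. With TPM 21.2% of all tested genes were higher and 38.3% lower. Voom on recovered fragments gave 17 and 4, against 31.0% and 32.3% of all tested genes. Log2 fold changes turned sign with TPM in MT-RNR1 (-0.046) and MT-ND4L (-0.060), with a total free of mitochondrial fragments in LRPPRC (0.012) and POLG (0.017), and with median-of-ratios scaling in POLG (0.0009). Leaving out single libraries turned the sign of MT-ATP8 (-0.45 to 0.084), MT-ND4L (-0.22 to 0.22), MT-ND4 (-0.0065 to 0.27), MT-TL2 (-0.31 to 0.14) and POLG (-0.036 to 0.016). None of these passed in the fit of all libraries.

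Same-numbered libraries deviated together with correlations of 0.067, 0.033 and -0.064 over 12349 genes, so the numbers were not taken to pair them. With the replicate block 13 members were higher and 3 lower (MT-TR lost at limma adjusted p = 0.068, MT-TL1 gained at 0.0333). The median mRNA log2 fold change was 0.23, and 57 nuclear genes were called, 42 higher. Of all tested genes 29.4% were higher and 30.4% lower with the block. Low counts limit the 7 tRNAs under 10 fragments.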

Other observations

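Nuclear genes named as copies of mitochondrial genes, nearly all of them pseudogenes, were listed in 407 rows, of which 352 were at 0 in every library. They held 8482 to 13142 fragments per library, which was 0.600 to 0.662% of the number on the mitochondrial genes. The 5 that were tested are pseudogenes and lie within 1 stretch of chromosome 1. MTATP6P1 was at 414 FPKM in CTR and 499 FPKM in miR-8485 (log2 difference 0.27, limma adjusted p = 0.0572), and MTND2P28 at 226 and 290 FPKM (0.39, 0.0584). MTCO1P12, MTND1P23 and MTCO3P12 rose by log2 fold changes of 0.41, 1.35 and 0.77 (limma adjusted p = 0.0213, 0.0416 and 0.0101), from 22.4, 1.34 and 1.05 FPKM. Of all tested genes 29.1% rose. The 3 calls passed in 11 of 16, 8 of 15 and 14 of 15 alternatives. MTND1P23 and MTCO3P12 rested on means of 16.2 and 14.5 fragments, and the groups of MTND1P23 overlapped. All 5 copies are close to identical to MT-ATP6, MT-ND2, MT-CO1, MT-ND1 and MT-CO3, so reads can be split between copies and sources. The values of both are uncertain to that degree.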
